A study of Bos taurus with 10 samples.

Results

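The probes for 9 genes of the tight junction were followed in day 7 cow embryos: TJP1, OCLN, CLDN3, CLDN4, CLDN6, CLDN7, CLDN10, F11R and CGN. Members were chosen by gene name, and every probe that the array annotated with one of those names was taken, which gave 22 of 43653 probes, for 9 of 17491 named genes. RNA of 10 embryo samples had been hybridised, 1 sample per array, to 1-colour Agilent bovine arrays. The embryos were flushed from the uterus of superovulated cows 7 days after the first insemination. The cows had received an intravenous infusion of vehicle (labelled DMSO, n = 2), of senktide at 30 nmol/min (n = 4) or of senktide at 300 nmol/min (n = 4). Senktide is a peptide that activates the neurokinin-3 receptor. It was given for 2 h, starting 48 h after superovulation treatment began, and the cows were inseminated at 108 and 120 h. Breed, age and genotype of the cows, and the number of embryos and of cows behind a sample, are not given in the sources used here, and the extraction text of the labels speaks of endometrium where all other fields name embryos. The p-values therefore reflect no more than how these samples varied, and that variation could be technical. In such bulk samples, fewer cells of a type and less RNA per cell cannot be told apart.

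Tight junctions encircle epithelial cells just below their free surface and close the gap between neighbours. Claudins form the strands that seal this gap or make it selectively permeable to ions, occludin (OCLN) and the junctional adhesion molecule F11R join them in the membrane, and the scaffold ZO-1 (TJP1) and cingulin (CGN) tie the strands to the actin cytoskeleton. In the mammalian blastocyst the outer layer, the trophectoderm, builds such junctions, and this seal lets fluid collect in the blastocoel.

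The probes of CLDN3, CLDN4 and CLDN6 below are shown because they read these close relatives through the same stretch of their transcripts. CLDN3 and CLDN4 each had 1 further probe elsewhere in the transcript. Each probe is 60 bases long, written 5′ to 3′ as deposited by the authors, and capitals mark the bases that all 3 share over the 32 positions where they overlap.
CLDN3: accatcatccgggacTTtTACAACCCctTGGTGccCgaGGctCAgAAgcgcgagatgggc
CLDN4: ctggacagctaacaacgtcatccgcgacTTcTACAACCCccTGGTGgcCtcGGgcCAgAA
CLDN6: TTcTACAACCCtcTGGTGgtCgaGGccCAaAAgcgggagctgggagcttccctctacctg
Of the 32 shared positions, 22 (68.8%) held the same base in all 3 probes. Taken in pairs, CLDN4 and CLDN6 matched at 26 of 32 positions (81.2%), CLDN3 and CLDN4 at 37 of 47 (78.7%), and CLDN3 and CLDN6 at 35 of 45 (77.8%). The longest run common to all 3 was 8 bases, and 0 of the 22 member probes shared a word of 20 bases with a probe of another gene on the array. On the build of the files, Btau_3.1, these probes lay at chr25:35569274-35569333 (CLDN3, plus strand), chr25:35539489-35539548 (CLDN4, minus strand) and chr25:2992079-2992138 (CLDN6, minus strand). None of these 3 probes was well above background on any array.

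Probes of CLDN7, F11R and OCLN follow because they gave signal on some arrays, with no capitals since they do not align with each other.
CLDN7: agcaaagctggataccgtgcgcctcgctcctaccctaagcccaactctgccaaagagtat
F11R: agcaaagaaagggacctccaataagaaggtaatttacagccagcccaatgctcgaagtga
OCLN: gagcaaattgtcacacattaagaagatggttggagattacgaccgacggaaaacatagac
The CLDN7 probe lay at chr19:27347969-27348028 on the minus strand and the OCLN probe at chr20:10817925-10817984 on the minus strand. The F11R probe shown, 1 of 3 for that gene, began at base 884 of its transcript, and its 60 bases were spread over 376 genomic bases, chr3:9445374-9445749 on the plus strand. Whether a probe lies in coding sequence or in a UTR was not looked up, since no annotation of this build was used here.

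F11R, an immunoglobulin-like adhesion protein of the junction, was the only member whose probe was well above background on all 10 arrays, a flag that the authors' scanner software sets where a spot's signal clears its local background by a wide margin. CLDN7 was flagged on 9 arrays, CLDN10 on 5 by its best probe, CGN on 4 and OCLN on 2. TJP1, CLDN3, CLDN4 and CLDN6 were flagged on none. At least 1 probe was so flagged on at least 1 array for 5 of 9 members (55.6%), beside 38.2% of all named genes, and on all arrays for 1 of 9 (11.1%), beside 9.27% of all named genes. By probe, 8 of 22 (36.4%) were flagged on at least 2 arrays, the condition for testing, beside 20.5% of all probes, and 14 of 22 were flagged on none. No spot was saturated.

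The arrays differed in how much they detected. Vehicle replicates 1 and 2 had 2 and 1 member probes well above background, the samples at 30 nmol/min had 5, 2, 6 and 7, and those at 300 nmol/min had 3, 5, 5 and 6. The count of member probes moved with the share of all spots flagged, which was 7.17 and 9.44% on the vehicle arrays and 11.53, 8.77, 18.3 and 19.6% at 30 nmol/min, with 10.47, 13.2, 19.6 and 19.1% at 300 nmol/min. The arrays lay on 3 slides: replicate 1 of all groups on slide 1, replicate 2 of all groups on slide 2, and the remaining senktide replicates, with no vehicle array, on slide 3. On slide 3 between 18.3 and 19.6% of spots were flagged, against 7.17 to 13.2% on slides 1 and 2. For values that rest on slide 3, senktide and slide therefore cannot be told apart.

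**Figure D1:**
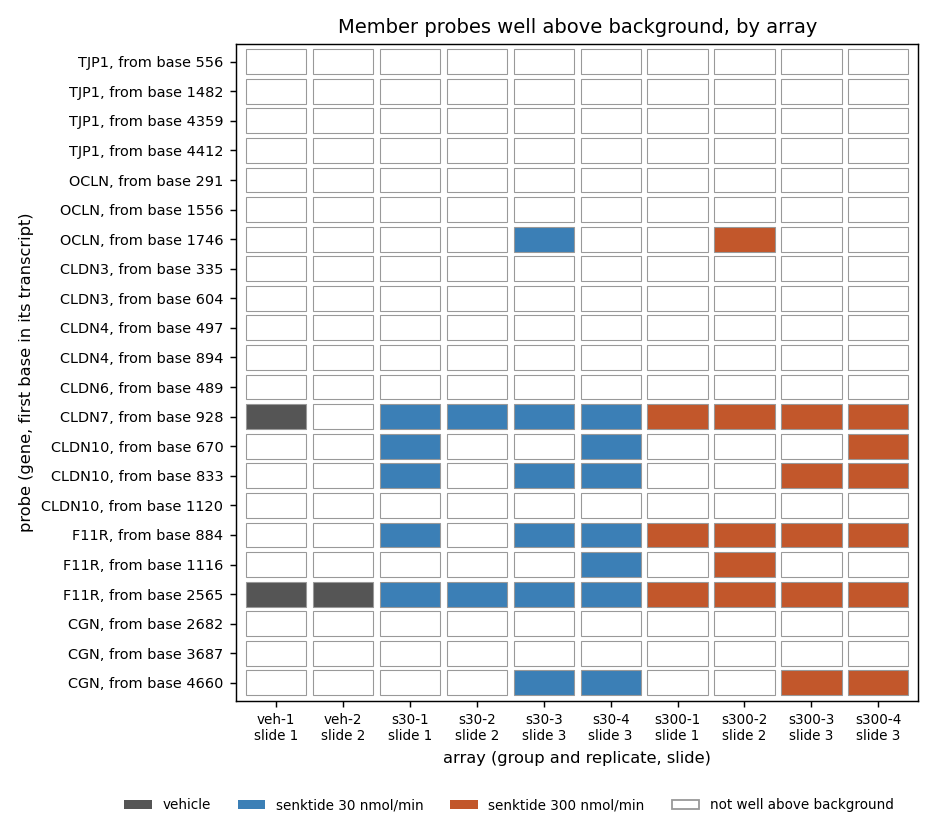
Detection of the 22 member probes (rows, by gene and first base in the transcript) on the 10 arrays (columns, by group, replicate and slide). A filled cell is a probe well above background, coloured by group, and an empty cell is one that is not; the F11R probe from base 2565 is filled on all 10 arrays, the CGN probe from base 4660 on the 4 arrays of slide 3, and every TJP1, CLDN3, CLDN4 and CLDN6 cell is empty.

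For F11R, the brightest probe began at base 2565 of the transcript (chr3:9447511-9447570, plus strand). Its processed signal was 92.7 and 178 in the vehicle samples and 209, 117, 583 and 570 at 30 nmol/min, with 223, 146, 567 and 751 at 300 nmol/min. The 4 highest values belonged to the 4 arrays of slide 3, and on slides 1 and 2 the groups overlapped. After scaling, that is as log2 of the signal minus log2 of the array's 75th percentile over the 2492 probes flagged on all arrays, F11R averaged 0.37 ± 0.21 in vehicle samples (SD, n = 2), 0.37 ± 0.17 at 30 nmol/min (n = 4) and 0.36 ± 0.23 at 300 nmol/min (n = 4). Over the 10 arrays its scaled level was 0.37 ± 0.18. The 4 arrays of slide 3 lay between 0.43 and 0.64, while the arrays of slides 1 and 2 lay between 0.08 and 0.31 apart from vehicle replicate 2 at 0.52.

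The second F11R probe, at base 884 and printed above, was flagged on 0 of 2 vehicle arrays, 3 of 4 at 30 nmol/min and 4 of 4 at 300 nmol/min. Its processed signals were 10.8 and 16.5 in vehicle samples and 18.6, 11.4, 18.3 and 30.2 at 30 nmol/min, with 18.5, 14.8, 18.5 and 21.4 at 300 nmol/min. These raw values overlapped between the groups and were low everywhere. The third F11R probe, at base 1116, was flagged on 2 arrays, 1 at each dose, with signals between 5.11 and 16.8.

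CLDN7, a claudin known to bind the adhesion protein EPCAM, gave processed signals of 19.96 and 17.3 in vehicle samples and 46.0, 19.6, 64.2 and 61.3 at 30 nmol/min, with 46.6, 22.2, 83.6 and 58.6 at 300 nmol/min. Only the array of vehicle replicate 2 was not flagged. The raw signals of both vehicle samples lay below or beside the lowest senktide values, which came from slide 2, and the values from slide 3 were high at both doses. On the scaled log2 scale the means were −2.42 ± 0.60 in vehicle samples (n = 2), −2.42 ± 0.35 at 30 nmol/min (n = 4) and −2.49 ± 0.46 at 300 nmol/min (n = 4), with overlap of all groups.

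CGN, the cingulin that links the plaque to actomyosin, was read by 3 probes, of which the one from base 4660 (chr3:20763600-20763659, minus strand) gave signal. Its processed signals were 7.88 and 6.83 in vehicle samples and 9.35, 5.44, 26.0 and 19.8 at 30 nmol/min, with 10.6, 10.6, 44.3 and 27.2 at 300 nmol/min. The flagged arrays were replicates 3 and 4 of both doses, which are the arrays of slide 3. The other CGN probes, from bases 2682 and 3687, stayed between 2.66 and 6.96 and were flagged on no array.

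CLDN10, a claudin that forms ion-selective pores in other epithelia, was seen by a pair of its 3 probes. The probe from base 670 (chr12:70619469-70619528, plus strand) had signals of 7.88 and 11.8 in vehicle samples and 16.3, 6.62, 11.02 and 22.8 at 30 nmol/min, with 5.13, 11.1, 11.4 and 31.8 at 300 nmol/min, and was flagged on 3 arrays. The probe from base 833 had signals of 3.04 and 8.13 in vehicle samples and 17.0, 7.03, 22.0 and 28.4 at 30 nmol/min, with 5.45, 4.48, 16.1 and 62.7 at 300 nmol/min, and was flagged on 5. Both probes were highest in replicate 4 at 300 nmol/min, and neither was flagged in a vehicle sample. The remaining CLDN10 probe matched the opposite strand (chr12:70599002-70599061, minus strand) and was at the software's substitute for low values on all 10 arrays.

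OCLN, the first integral protein known from these junctions, was barely detected. Its probe from base 1746 had processed signals of 9.81 and 7.98 in vehicle samples and 5.30, 11.7, 17.8 and 7.94 at 30 nmol/min, with 10.8, 21.0, 18.1 and 16.4 at 300 nmol/min. It was flagged on 2 arrays, replicate 3 at 30 nmol/min and replicate 2 at 300 nmol/min, and values on arrays without the flag reached 18.1.

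**Figure D2:**
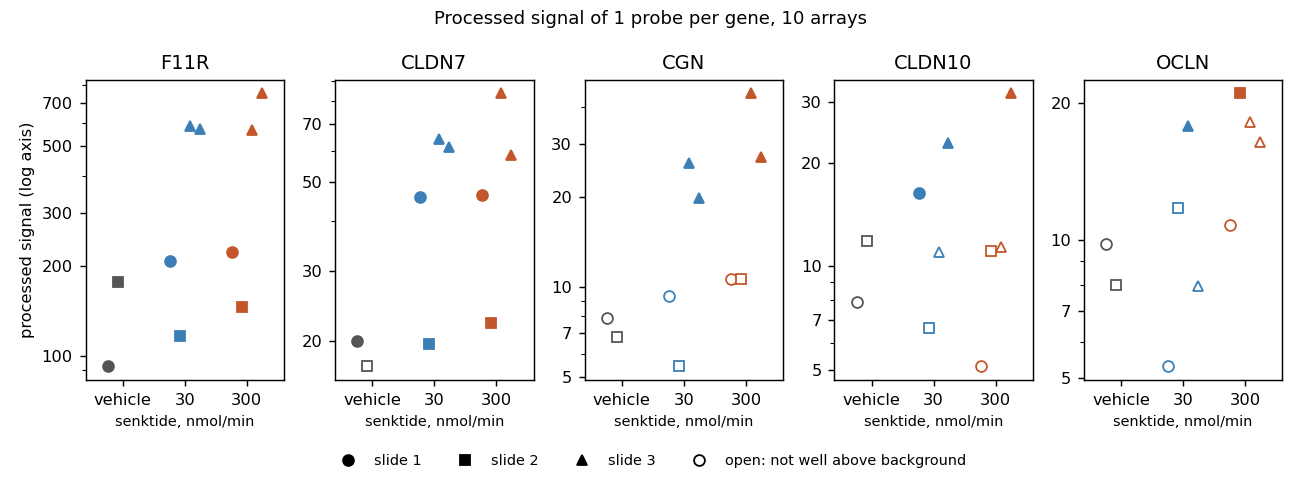
Processed signal (log axis, arbitrary scanner units, a separate scale in each panel) of the probe that stands for each of 5 genes, by senktide dose in nmol/min, with 1 point per array, shapes for slides 1 to 3 and open symbols where the probe was not well above background. F11R ranges from 92.7 to 751 and CLDN7 from 17.3 to 83.6, and the triangles of slide 3 are the highest points for F11R, CLDN7 and CGN.

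TJP1, the scaffold ZO-1, had 4 probes with processed signals between 1.92 and 9.55 and no flag on any array. The 2 CLDN3 probes ranged from 1.91 to 5.33, the 2 CLDN4 probes from 1.95 to 11.3 and the CLDN6 probe from 1.92 to 5.46. CLDN3 and CLDN4 are barrier-forming claudins and CLDN6 is known from early embryonic epithelia. For these 4 genes no group had a value well above background, so a difference between groups could not be judged at this signal over background. The weaker flag of the software, which asks only that a spot be positive and differ from its background, was set on all 10 arrays for CLDN4, for 1 of its probes, and for 0 of the probes of TJP1, CLDN3 and CLDN6.

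Probes of the same gene differed in detection. For F11R the probe from base 2565 was flagged on 10 arrays, against 7 from base 884 and 2 from base 1116. For OCLN only the farthest of the 3 probes was flagged, from base 1746, and for CGN only the one from base 4660. For TJP1, which had probes as far along as base 4412, 0 of 4 were flagged, and neither CLDN4 probe was, from bases 497 and 894. The base numbers of CGN, TJP1 and CLDN10 come from different transcript records within each gene, so they do not rank those probes along a single transcript. The share of G and C ran from 35.0% in the CLDN10 probe from base 833 to 60% in both CLDN3 probes, the CLDN4 probe printed above and the CLDN6 probe, with 55.0% in CLDN7.

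The first comparison set 300 nmol/min senktide against vehicle. With limma's moderated test and Benjamini-Hochberg adjustment over all 8936 tested probes, 0 of the 5 tested member genes passed the threshold of 0.05, where 1 of 8936 probes in all passed (0.0112%). At an unadjusted p under 0.05 there were 1233 probes, none of them a member probe. F11R differed by −0.01 log2 (SE 0.22, 95% interval −0.50 to 0.48, adjusted p = 0.991), a ratio of 0.994 with bounds of 0.707 and 1.40. CLDN7 differed by −0.07 (SE 0.36, interval −0.89 to 0.74, adjusted p = 0.939). These intervals include both a rise and a fall, and for CLDN7 they reach from a ratio of 0.541 to one of 1.67.

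CGN, OCLN, CLDN10 and the other F11R probes were flagged in no vehicle sample. Against the lowest signal that vehicle arrays could resolve, the bound on their ratio was under 1 in every case, so no fold is given. On the scaled log2 values, the F11R probe from base 884 and the CLDN10 probe from base 670 did not overlap between the groups, vehicle having the higher values, while their vehicle spots were not well above background. At 300 nmol/min the F11R probe averaged −3.88 ± 0.72 (n = 4), against −2.89 ± 0.02 in vehicle samples (n = 2), and the CLDN10 probe averaged −4.48 ± 0.81, against −3.36 ± 0.04. Of all tested probes 25.5% did not overlap in this comparison. The F11R and CLDN10 probes differed by −0.98 and −1.12 log2, with adjusted p-values in limma of 0.382 and 0.387. Over all 43653 probes, flagged or not, the median difference on this scale was −1.46 log2.

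The comparison of 30 nmol/min with vehicle gave the same counts for the members, 0 of 5 genes passing, with 0% of the 8936 tested probes passing in limma and 1006 at an unadjusted p under 0.05. F11R differed by −0.0029 log2 (SE 0.22, adjusted p = 0.996) and CLDN7 by −0.0029 (SE 0.36, interval −0.82 to 0.81, adjusted p = 0.997). The same F11R and CLDN10 probes did not overlap between the groups, as was so for 19.5% of all tested probes. At 30 nmol/min the F11R probe averaged −3.65 ± 0.60 and the CLDN10 probe −4.18 ± 0.73 (n = 4 each), against −2.89 ± 0.02 and −3.36 ± 0.04 in vehicle samples (n = 2), with adjusted p-values of 0.529 and 0.552. The 2 comparisons share their vehicle samples.

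Between the doses, 300 against 30 nmol/min, 0 of 5 member genes passed in limma and 0% of all tested probes did, with 269 probes at an unadjusted p under 0.05. F11R differed by −0.01 log2 (SE 0.18, interval −0.41 to 0.40, adjusted p = 0.9997) and CLDN7 by −0.07 (SE 0.30, interval −0.73 to 0.59, adjusted p = 0.9997). CGN had the largest positive difference among the members that could be compared, 0.39 (SE 0.26, interval −0.18 to 0.97, adjusted p = 0.9997). CLDN10 had −0.30 by its probe from base 670 (SE 0.45, interval −1.31 to 0.71, adjusted p = 0.9997). The CLDN10 probe from base 833, flagged on more arrays, gave −0.60 in limma (SE 0.45, interval −1.60 to 0.41, adjusted p = 0.9997). No pair of groups was separated here for any tested member probe, and 2.7% of all tested probes were.

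Arrays of the same replicate number lay on the same slide. For F11R, 300 nmol/min minus vehicle was 0.09 log2 on slide 1 and −0.44 on slide 2, and 30 nmol/min minus vehicle was 0.00033 and −0.30. CLDN7 gave 0.05 and 0.20 at 300 nmol/min minus vehicle and 0.04 and 0.49 at 30 nmol/min minus vehicle, where vehicle replicate 2 was not flagged. Signs thus differed between slides for F11R at both doses, the slide 1 value at 30 nmol/min being only 0.00033, and did not for CLDN7. For 300 minus 30 nmol/min in replicates 1 to 4, F11R gave 0.09, −0.15, −0.12 and 0.15 and CLDN7 gave 0.01, −0.29, 0.31 and −0.31. CGN gave 0.18, 0.49, 0.69 and 0.22, where only the pairs on slide 3 had both arrays flagged. The F11R probe from base 884 gave −0.01, −0.09, −0.07 and −0.74, so the CGN values were all positive and those of this F11R probe all negative.

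**Figure D3:**
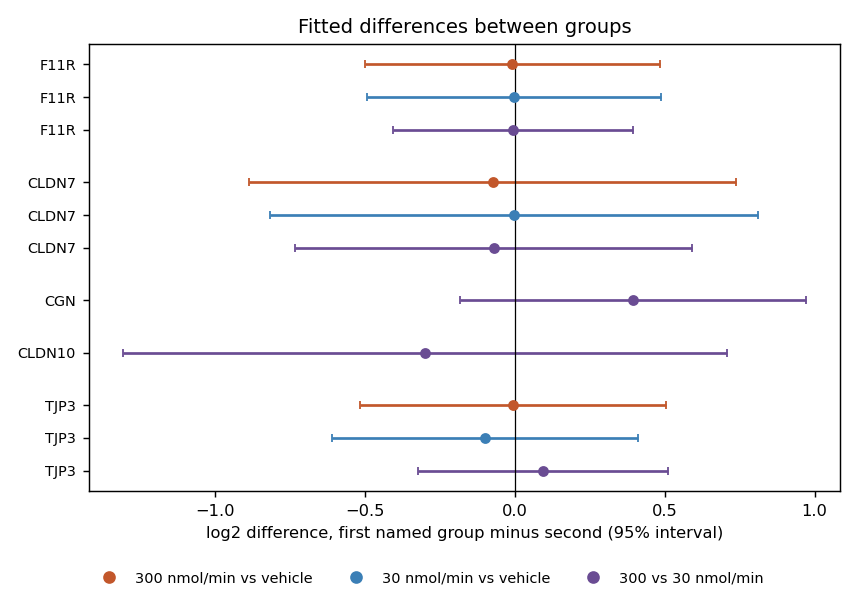
Fitted log2 differences with 95% intervals from limma over 10 arrays for members with a fold to give, and for TJP3, with a colour for each comparison and the line at 0 for no difference. Each gene is shown by 1 probe, CLDN10 by that from base 670. All 11 intervals cross 0, and the differences run from CLDN10 at −0.30 (300 against 30 nmol/min) to CGN at 0.39 (300 against 30 nmol/min).

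The choice of scale set the size of the differences from vehicle. With each array scaled to its 75th percentile over all probes, the median of all tested probes was 1.06 log2 for 300 nmol/min against vehicle and 0.95 for 30 nmol/min against vehicle. On that scale F11R stood at 1.16 and 1.05, and CLDN7 at 1.098 and 1.05, each near the median of its comparison. For CGN at 300 nmol/min the bound on the ratio to vehicle was 1.24 on that scale, a smaller ratio than the shift of that median. Its flagged arrays were those of slide 3, without a vehicle array, so senktide and slide cannot be told apart there. No member passed the threshold on that scale in limma.

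Other genes of the pathway came from 4 lists. Of the 18 other claudins listed, 15 were on the array, 3 were flagged on any array and 0 on all. CLDN12 was flagged on 6 arrays, CLDN8 on 4 and CLDND1, a claudin-like protein, on 3, and none of the 3 was flagged in a vehicle sample. Of 13 other membrane proteins of the junction, 12 were on the array and 3 were flagged on any: LSR, the lipolysis-stimulated receptor of tricellular contacts, on 8, JAM3 on 2 and the tricellulin gene MARVELD2 on 1.

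Of the 22 cytoplasmic plaque and polarity genes considered, 12 were flagged on any array and 1 on all 10. That gene was TJP3 (ZO-3), a relative of ZO-1. TJP3 had processed signals of 28.8 and 36.1 in vehicle samples and 55.0, 26.1, 140 and 123 at 30 nmol/min, with 57.5, 36.8, 175 and 150 at 300 nmol/min. As for F11R, its highest values were those of slide 3. In limma TJP3 differed by −0.01 log2 (SE 0.23, adjusted p = 0.993) at 300 nmol/min against vehicle and by −0.10 (adjusted p = 0.877) at 30 nmol/min against vehicle.

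All 11 partners and regulators of claudins considered were flagged on at least 1 array and 4 of them on all 10. These were EPCAM, an adhesion protein that binds CLDN7, the membrane serine protease PRSS8, its inhibitor SPINT2, and TFAP2C, a trophectoderm transcription factor. Over the 10 arrays their scaled levels were 1.16 ± 0.24 for EPCAM, −2.18 ± 0.50 for PRSS8, 0.15 ± 0.29 for SPINT2 and −1.42 ± 0.30 for TFAP2C (SD, n = 10 each). The protease matriptase, ST14, which cuts EPCAM, was flagged on 9 arrays.

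In none of the 4 lists did a gene pass the threshold in any of the 3 comparisons. Medians were taken over the genes whose difference could be given, that is with a flagged array in both groups and at least 2 in 1 of them. For 300 nmol/min against vehicle no other claudin met this, LSR alone of the membrane proteins did, at 0.35 log2, and the medians were −0.21 over 2 plaque and polarity genes and 0.39 over 5 partners and regulators, beside −0.07 over all 4117 such probes. For 30 nmol/min against vehicle LSR stood at 0.19 and the medians were −0.40 over 2 and 0.12 over 5 genes, beside −0.07 over all 4116 such probes. For 300 against 30 nmol/min the medians were −0.25 over 3 other claudins, 0.09 over 7 plaque and polarity genes and 0.13 over 9 partners and regulators, with LSR at 0.16, beside −0.0059 over all 7962 such probes.

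**Figure D4:**
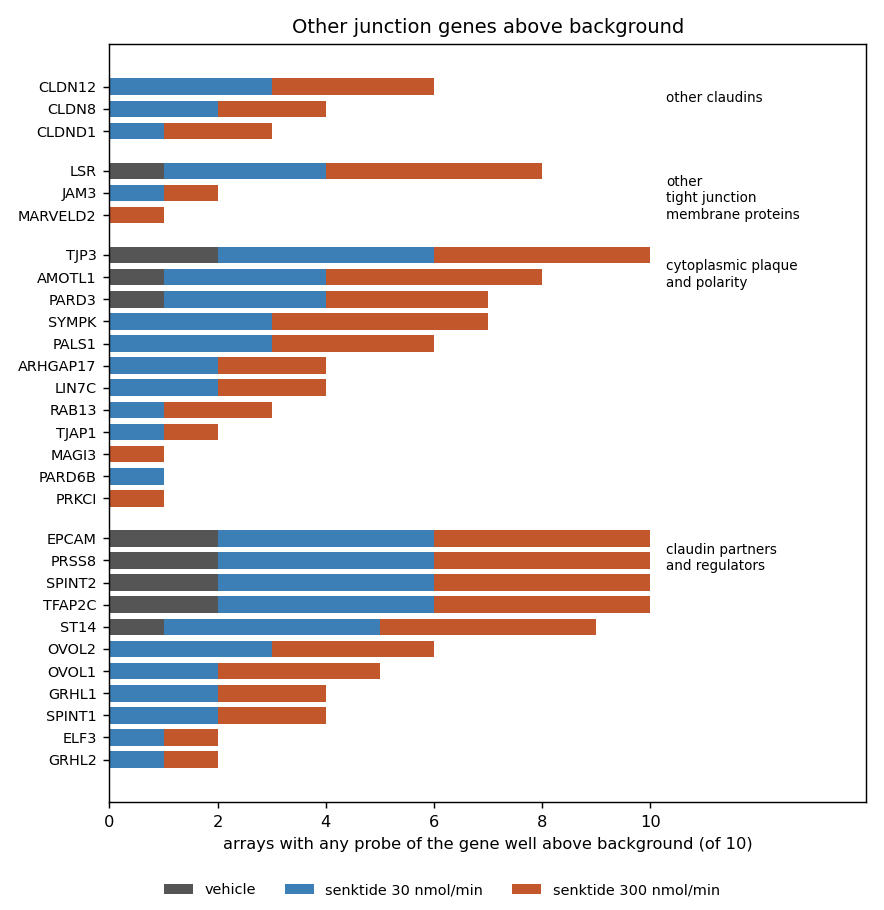
Number of arrays, of 10, on which any probe of a gene was well above background, for the genes of 4 lists flagged at least once, with bars stacked by group (2 vehicle, 4 at 30 nmol/min, 4 at 300 nmol/min). TJP3, EPCAM, PRSS8, SPINT2 and TFAP2C reach 10, while CLDN12 and CLDN8 stop at 6 and 4.

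The probes whose scaled level went most like that of F11R over the 10 arrays were those of PRKAR1A, a regulatory subunit of protein kinase A (r = 0.947), VCP, an ATPase of protein quality control (r = 0.918), and PGAM1, a glycolytic enzyme (r = 0.906), of 2490 probes compared. These points share slides and the scale of each array, and the correlations are given as a description.

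Marker lists checked the labelled tissue. Of 9 trophectoderm markers on the array 8 were flagged on at least 1 array, among them KRT8 and KRT18, and CDX2 was flagged on none. Of 3 inner cell mass markers SOX2 was flagged on all 10 arrays, POU5F1 on 4 and NANOG on none. Uterine and oviduct epithelium also makes tight junctions. Of its 10 markers CLU was flagged on 8 arrays by any of its probes (7 by its best probe) and LTF and MUC1 on 1 each, while ESR1, FOXA2, OVGP1, PAEP, PGR, SERPINA14 and SPP1 were flagged on none. The summed signal of these 10 markers ran from 58.2 to 68.2 in vehicle samples, 56.9 to 81.6 at 30 nmol/min and 48.2 to 74.2 at 300 nmol/min. Among markers of other cells, 3 of 7 leukocyte, 1 of 2 blood and 2 of 4 stroma genes were flagged on any array, LYZ of the leukocyte genes on all 10. Summed leukocyte signals were 44.2 to 68.2, 50.3 to 151 and 66.5 to 201 in the same order of groups. Summed trophectoderm signals were 2726 to 3189, 3035 to 14398 and 4769 to 17968. These sums are unscaled, and slide 3, where a larger share of spots was flagged, held no vehicle array. The part of these other cells in the levels of the junction genes was not tested.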

How the data were processed

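Titles gave each sample's group and replicate number. The deposited scanner tables give an intensity for each spot, from Agilent Feature Extraction, version 11.5.1.1 per the file headers and 10.5.1.1 per the submitters' processing notes. The authors' processed intensity is background-subtracted within each array, with a substitute for low values, per the file headers. The deposited flags, coded 0 or 1, mark spots well above background and outlier spots, and outlier spots were left out. The deposited series matrix holds log2 values whose scale, centring and direction the labels do not state. On each array at least 99.88% of them lay within 0.01 of log2 processed signal less the probe's median and less the 75th percentile of all probes on that array, which settles all 3. The columns of that matrix had medians of 0.216 and 0.119 for vehicle, of 0.0447, 0.0660, −0.128 and −0.308 for the lower dose, and of 0.159, −0.181, −0.276 and −0.227 for the higher dose.

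From the scanner files, processed signals were averaged over spots, converted to log2 and scaled to each array's 75th percentile over those 2492 probes that had the first flag on every array. A probe with several spots counted as flagged where at least 50% of them were. The 8936 of 43653 probes flagged on at least 2 arrays were fitted in limma 3.58.1 under R 4.3.3 (lmFit, eBayes) with 1 coefficient per group, all arrays sharing the estimate of spread, and p-values were adjusted over all of them by Benjamini-Hochberg (threshold 0.05). The fit was tested on simulated data. A gene is represented by its tested probe of highest mean. Where a probe was flagged on none of a group's arrays, only a bound was computed, from the brighter group's mean and, for each dim array, the higher of its lowest flagged signal and the probe's own. A difference is given only where both groups had a flagged array and 1 of them at least 2. The number of arrays limits the precision.

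Named were all 9 members, the list genes flagged on all arrays, up to 12, and the 3 genes most like a member probe flagged on all arrays. Other list genes were named after their flags were seen, and some list genes are not reported here and were left out of the lists' counts and medians. Members and lists were chosen with earlier results of these data known. The lists were other claudins, other membrane proteins, plaque and polarity, partners and regulators, and markers of trophectoderm, inner cell mass, uterine and oviduct epithelium, leukocytes, blood and stroma. TFAP2C stands in both the partners and the trophectoderm list. Symbols came from a RefSeq table (ARS-UCD2.0, whose coordinates were not used), which matched 20595 probes through their accession, 10745 through a symbol, 386 through a synonym and 708 through another accession. The files' own name was kept for 2548 and 8671 were unnamed.

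Same-numbered senktide arrays deviated together, with r of 0.487, 0.494, 0.565 and 0.574 over all tested probes with a value on each array. Different numbers on slide 3 gave 0.492 and 0.544, and different numbers across slides 1 and 2 gave 0.413 and 0.417. Slides 1 and 2 each hold a single replicate number, so there a pairing of samples by number cannot be told apart from a shared slide. Slide 3 holds replicates 3 and 4 of both doses. There same numbers gave 0.565 and 0.574, beside the 0.492 and 0.544 of different numbers. Whether samples were paired by number was not tested. Alternatives were other scalings, quantile normalization, normexp with an offset of 50, a common floor, other filters, slide or replicate number as a block, slides 1 and 2 alone, the deposited matrix, other probes and leaving out each array. Tables and figures were made in Python 3.11.15 (pandas 2.3.3, numpy 2.4.6, matplotlib 3.10.9).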

Additional observations from a re-analysis of the deposited data

Results flagged for a closer look

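In the group at 300 nmol/min, the CLDN10 probe from base 833 stood apart in replicate 4, at −2.94 on the scaled log2 scale against a group median of −4.83. Its gap to the nearest of the other 3 arrays was 0.841 of the group's range, above Dixon's critical value at the 95% level for 4 samples. Of 16 groups of member probe values checked this was the only such case, and chance flags about 1 in 20. Both arrays flagged for this probe at this dose, replicates 3 and 4, lie on slide 3. The CLDN10 probe from base 670 had its highest processed signal in replicate 4, at 31.8. On the scaled log2 scale, however, it was highest at this dose in replicate 2, at −3.64, with replicate 4 at −3.92.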

How the results depend on the processing

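In every alternative run, 0 member genes passed the threshold in each of the 3 comparisons. With the common floor only F11R and CLDN7 of the members could be tested. With the filter for probes flagged on all arrays only F11R could, so these runs say nothing on the other members. The count of members flagged on all arrays was 1, or 6 with the software's weaker flag for positive and significant spots (OCLN, CLDN4, CLDN7, CLDN10, F11R and CGN). Signs of the small differences did change.

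For 300 nmol/min against vehicle, scaling to the 75th percentile over all probes, to the median over all probes, and the deposited matrix gave 1.098, 1.35 and 1.098 for CLDN7, 1.16, 1.42 and 1.16 for F11R, and 1.17, 1.42 and 1.17 for TJP3, where the medians of all tested probes were 1.06, 1.31 and 1.06. For 30 nmol/min against vehicle they gave 1.05, 1.32 and 1.05 for CLDN7, 1.05, 1.32 and 1.05 for F11R, and 0.96, 1.22 and 0.96 for TJP3, where those medians were 0.95, 1.21 and 0.95. For 300 against 30 nmol/min they gave 0.044, 0.034 and 0.044 for CLDN7 and 0.11, 0.10 and 0.11 for F11R. Quantile normalization gave 0.10 and 0.16 for CLDN7 at 300 and 30 nmol/min against vehicle and 0.033 for TJP3 at 300 nmol/min, and normexp gave 0.013 for CLDN7 and 0.032 for CLDN10 between the doses. A common floor gave 0.0053 for CLDN7 between the doses. With the replicate block CLDN7 was 0.16 and 0.23 at 300 and 30 nmol/min against vehicle, and slide as a block gave the same values; the block changed no member's call. Slides 1 and 2 alone gave 0.12 and 0.26 for CLDN7. The cause of these changes was not tested.

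Leaving out 1 array gave ranges for CLDN7 of −0.50 to 0.35 (300 against vehicle), −0.43 to 0.42 (30 against vehicle) and −0.25 to 0.11 (300 against 30), with the highest values against vehicle without vehicle replicate 1. The ranges were −0.16 to 0.14, −0.15 to 0.15 and −0.098 to 0.089 for F11R and −0.16 to 0.15, −0.25 to 0.054 and −0.025 to 0.19 for TJP3. F11R was highest against vehicle without vehicle replicate 2. Between the doses CGN ranged from 0.21 to 0.51 and CLDN10, by its probe from base 670, from −0.64 to −0.056.

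Some bounds against vehicle passed 1 on other scales, the highest for CGN at 300 nmol/min. It was 1.24 with the 75th percentile and 1.48 with the median over all probes, beside the median shift above. The flagged CGN arrays were all on the slide without a vehicle array, so senktide and slide cannot be told apart there. Over all tested probes, calls for 300 and 30 nmol/min against vehicle numbered 1 and 0, but 142 and 107 with quantile normalization and 108 and 35 with normexp. A common floor gave 48 and 52 over 4564 tested probes, among which the only member probes were that of CLDN7 and the F11R probe from base 2565. None of these calls was a member gene. In the fits that leave a vehicle group of 1 array, that array is assumed to vary like the other groups. Signal over background limits OCLN, CLDN10 and CGN, and leaves no comparison for TJP1, CLDN3, CLDN4 and CLDN6.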
